A study of Mus musculus with 18 samples.

Results

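ITPK1-deleted (ITPK1-KO) tumour cells were set against ITPK1-proficient (ITPK1-WT) tumour cells that had shared the peritoneum of the same mouse treated with anti-Her2 IgA. The comparison takes 8 of the 18 sequencing libraries of the study, namely the ITPK1-WT and the ITPK1-KO library of each of the 4 IgA mice (mice 5 to 8), and covers all 76 genes that the sgRNA library targets. The members were chosen by treatment, background and mouse, not by any measured value. The library holds 252 sgRNAs, of which 228 target genes (3 per gene) and 24 are non-targeting.

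The cells were sensBa/F3 cells, a form of Ba/F3, a mouse pro-B line that depends on interleukin-3. ITPK1-KO cells were made by electroporation of an sgRNA against ITPK1 and are a pool of 6 clones with deletions and without a lentiviral integration. The ITPK1-WT cells are the parental line. Both were transduced separately with the same lentiviral library, cultured for 10 days, stained with CellTrace violet (ITPK1-WT) or yellow (ITPK1-KO) and mixed in equal parts. Each hCD89-transgenic mouse, which carries the human Fc receptor for IgA, received 20 M cells of the mixture by intraperitoneal injection. Mice 5 to 8 then received anti-hHer2 IgA and mice 1 to 4 received PBS (vehicle). Viable cells were sorted by dye from the peritoneal lavage after 16 h. Strain, sex and age of the mice are not stated in the labels. The arm of each mouse comes from the sample legend. Each background was 1 transduced pool that all mice shared, so every p below applies to mice carrying the same pools. The edgeR p of a gene rests on a spread estimated over all genes, not on how well its own mice agree. Genotype, dye and pool cannot be told apart, in the IgA mice or in the vehicle mice.

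ITPK1 and IPMK are kinases of the inositol phosphate pathway, in which IPMK phosphorylates lower inositol phosphates and ITPK1 adds and moves phosphates on the ring. Highly phosphorylated inositol phosphates made by this pathway bind MLKL, the pore-forming effector of necroptosis, and license its activation. Most other genes of the library belong to death receptor signalling, necroptosis, mitochondrial apoptosis, pyroptosis, ferroptosis and cytokine signalling. In a pooled CRISPR screen the share of an sgRNA among the reads stands for the share of cells that carry it, so a lower level in one background means that cells with that sgRNA made up less of the pool there.

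Listed here are the sgRNAs of the genes with the 2 highest and the 4 lowest differences between backgrounds. Those of Ripk1 and Commd4 are added, whose differences were not the same in IgA and vehicle mice. All are written 5′ to 3′ as the authors deposited them, with the 10 bases next to the PAM in capitals. The PAM itself is not part of the sgRNA.
Itpk1 sg-1: gttcgaacggCCAAGCGATG
Itpk1 sg-2: cgaacttatcCGAAAGATCG
Itpk1 sg-3: ggtgggcgagTCCTACACAG
Acsl4 sg-1: gtccagggatACGTTCACAC
Acsl4 sg-2: gcccatatccCTGACCAATG
Acsl4 sg-3: caatagagcaGAGTACCCTG
Ipmk sg-1: caaacgatagAACTTTGGCG
Ipmk sg-2: agacgccgtaGTATTTGGGC
Ipmk sg-3: ctctaccttcTGAATACTGG
Txnl4b sg-1: actgtgtgtaAACCGGCGTG
Txnl4b sg-2: ccaggcgatcAAAAGCACTG
Txnl4b sg-3: catccagctgCAGACAGACG
Daxx sg-1: tcagcacatcTCCATAATCG
Daxx sg-2: ggagacatcaGACCACCCTG
Daxx sg-3: gcgggcctccTGCAAATACG
Grb2 sg-1: aaacacttacTTGACGGACA
Grb2 sg-2: aatacttcccGGCTCCGTCG
Grb2 sg-3: cagcaaacagCGGCATGACG
Ripk1 sg-1: cagactgagaCACAGTCGAG
Ripk1 sg-2: cctgaatttgACCTGCTCGG
Ripk1 sg-3: aatccttgagTACTGTCCAA
Commd4 sg-1: ctagagcacaCTCACCACGT
Commd4 sg-2: gaaactcagcACCGCGACCG
Commd4 sg-3: atcactgtcgACACTATGCT

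The 8 IgA libraries held 432050 to 808586 reads each, with 1786 to 3310.5 reads for the median sgRNA. The 12 pairs of IgA libraries of one background correlated with r of 0.990 to 0.998 over the log2 share of reads per sgRNA. Every pair differed by more than counting noise. The sorted cells amounted to 2607 to 7937 per sgRNA on average. Only 2 sgRNA counts were 0, both of Ipmk sg-2 in ITPK1-KO cells. Non-targeting sgRNAs took 12.8% to 13.2% of the reads in ITPK1-WT libraries and 13.4% to 13.5% in ITPK1-KO libraries, without overlap. In the vehicle mice they took 13.4% to 13.5% and 13.5% to 13.7%. These did not overlap either, though the gap was narrow (highest ITPK1-WT 13.517%, lowest ITPK1-KO 13.521%). Levels below are scaled to the non-targeting sgRNAs: the summed reads of a gene's 3 sgRNAs are given as a percentage of what 3 average non-targeting sgRNAs had in that library, the average being a geometric mean. A level also carries how often an sgRNA was present in the cloned library, which was not analysed here, so levels of different genes are not compared. Differences are log2 of ITPK1-KO over ITPK1-WT within a mouse, with 0.5 reads added, and are given as mean ± SD over 4 mice.

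Of the 76 genes, 37 (48.7%) differed between ITPK1-KO and ITPK1-WT cells of the IgA mice at an adjusted p under 0.05 (edgeR's quasi-likelihood test on summed reads with the mouse as a block, Benjamini-Hochberg adjustment over 76 genes). In ITPK1-KO cells 6 of them (7.89%) were higher and 31 (40.8%) were lower. The differences were small for most genes: 20 genes exceeded 0.1 on the log2 scale in either direction. The spread between mice was of similar size for many genes, with a median SD over genes of 0.043 beside a median difference of −0.031. The common dispersion of the fit was a biological coefficient of variation of 2.04%. The spread used for each gene was drawn wholly from all genes, none keeping an estimate of its own. In ITPK1-KO cells 33 genes were lower in all 4 mice and 9 were higher in all 4, and 34 varied in sign. For 28 genes (36.8%) the ITPK1-KO and ITPK1-WT levels did not overlap.

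The non-targeting sgRNAs, scaled the same way, spread from −0.10 to 0.12 around a median of −0.0012, with an SD of 0.052 over 24 sgRNAs. These are single sgRNAs, whereas a gene sums 3, so their range is not matched to gene values and is given as a description, not as a threshold. Of the 37 genes called, 16 lay below that range, 4 lay above it and 17 lay inside it. At the level of single sgRNAs, 78 of 252 (31%) passed the test, 17 (6.75%) higher and 61 (24.2%) lower in ITPK1-KO cells. Among the targeting sgRNAs 75 of 228 (32.9%) did so, 15 higher (6.58%) and 60 lower (26.3%). Among the non-targeting sgRNAs 3 of 24 (12.5%) did, 2 higher (8.33%) and 1 lower (4.17%). The median gene stood at −0.031, and the scale that was chosen decides the direction of genes this close to 0. Scaling by TMM over all sgRNAs moved the median gene to 0.0084 and the calls to 16 higher and 19 lower, so that 54.3% of the calls were lower in place of 83.8%. The split was 17 to 18 with DESeq2's size factors and 18 to 18 with total counts. Of the 37 genes, 22 kept their call and direction under each of the 4 other scalings, 4 higher and 18 lower. Calls under all 16 alternative settings were kept by 20 genes. Among these settings, the other filters on low counts removed none of the 76 genes, so they could not change a gene call. The higher ones were Itpk1, Acsl4, Eif5b and Tmem57. The lower ones included Ipmk, Txnl4b, Daxx, Grb2, Bbc3, Spata2, Hspbap1, Parp2, Bax, Atp6v1g2, Cd27, Ripk1, Ifngr2 and Bak1.

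**Figure D1:**
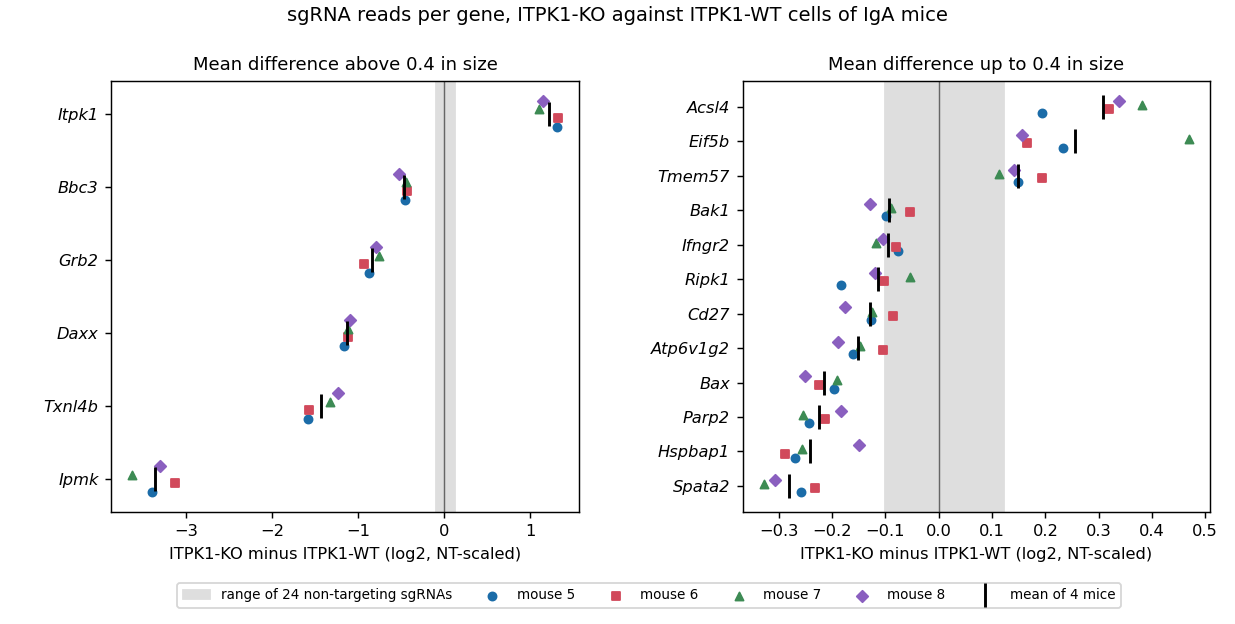
Difference between ITPK1-KO and ITPK1-WT cells (log2, scaled to the non-targeting sgRNAs) for 18 of the 20 genes called under every setting tried; each point is 1 IgA mouse, the black tick is the mean of 4 mice, the grey band is the range of the 24 non-targeting sgRNAs, and the panels have different axes. All 4 mice lie outside the band for every gene of the left panel, while on the right Bak1, Ifngr2, Ripk1, Cd27 and Tmem57 have at least 1 mouse inside it.

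The 2 inositol phosphate kinases of the library gave the highest and the lowest difference of all genes, in opposite directions. Itpk1 sgRNAs stood at 32.9%, 31.1%, 37.2% and 36.0% of the level of the controls in ITPK1-WT cells of mice 5, 6, 7 and 8. In ITPK1-KO cells, where the targeted gene was already deleted, they stood at 81.6%, 77.5%, 80.1% and 80.0%. Every ITPK1-KO library was thus above every ITPK1-WT library, and nearer to the non-targeting level. The difference was 1.22 ± 0.11, a 2.33-fold higher level (edgeR adjusted p = 2.62e-103). By sgRNA it was 1.90 for sg-1, 1.82 for sg-3 and 0.39 for sg-2, all 3 called.

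Ipmk sgRNAs stood at 28.8%, 24.9%, 31.6% and 31.2% in ITPK1-WT cells of mice 5 to 8. In ITPK1-KO cells they stood at 2.72%, 2.83%, 2.55% and 3.15%. The level was thus below that of the controls in both backgrounds, and by far lower where ITPK1 was deleted. The difference was −3.37 ± 0.20, so that ITPK1-KO cells held 0.0969 of the ITPK1-WT level (edgeR adjusted p = 6.13e-117). The sgRNAs sg-1 (−2.73 ± 0.20) and sg-3 (−4.53 ± 0.32) agreed in direction in all mice. The value of sg-2 rests on 0 to 3 reads per ITPK1-KO library against 25 to 62 per ITPK1-WT library, and the added 0.5 reads set its size.

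**Figure D2:**
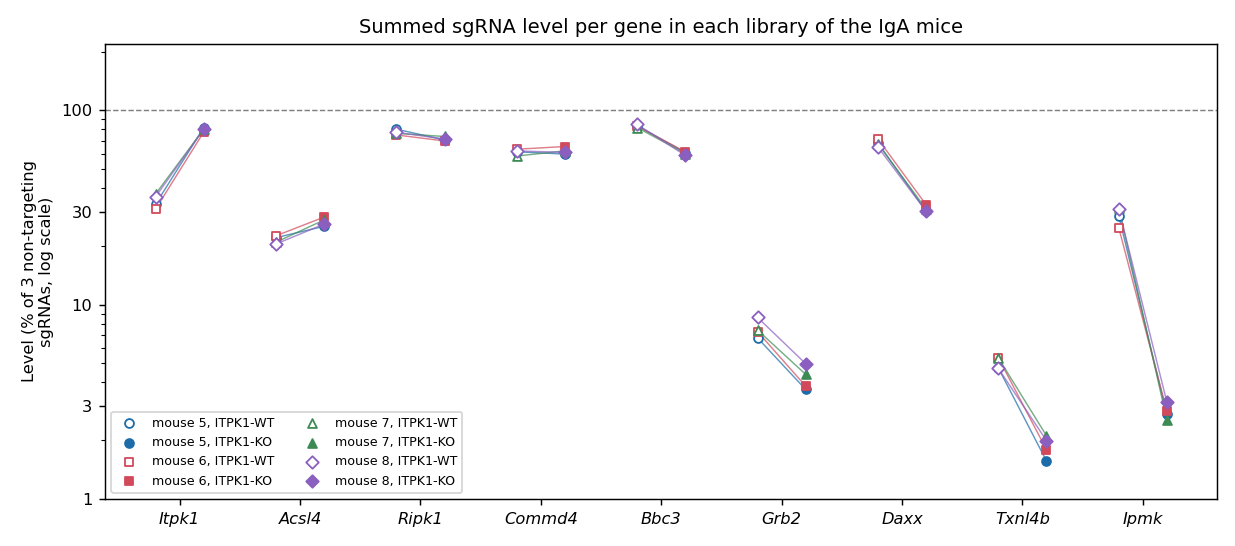
Level of 9 genes in each library of the IgA mice, as a percentage of 3 average non-targeting sgRNAs on a log axis; open symbols are ITPK1-WT, filled symbols are ITPK1-KO, lines join the libraries of a mouse, and the dashed line marks 100%. Itpk1 lies between 31.1% and 37.2% in ITPK1-WT cells, against between 77.5% and 81.6% in ITPK1-KO cells, Ipmk goes the other way, and the symbols of Commd4 overlap.

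The 3 genes with general roles in growth and gene expression all differed, where 48.7% of all genes did. Txnl4b encodes a thioredoxin-like protein with a role in pre-mRNA splicing. Its sgRNAs stood at 4.73%, 5.33%, 5.32% and 4.70% in the ITPK1-WT libraries of mice 5 to 8, against 1.57%, 1.79%, 2.12% and 2.00% in their ITPK1-KO libraries. The difference was −1.43 ± 0.18 (edgeR adjusted p = 3.28e-37), with −1.58, −2.16 and −0.48 for the 3 sgRNAs. Grb2, the adaptor that couples growth factor receptors to Ras, stood at 6.74%, 7.26%, 7.40% and 8.60% in ITPK1-WT cells, against 3.66%, 3.81%, 4.38% and 4.97% in ITPK1-KO cells. Its difference was −0.84 ± 0.080 (edgeR adjusted p = 1.84e-20). The groups did not overlap for either gene, and both genes were low in both backgrounds. Behind them lay few reads, such as 25 to 28 per ITPK1-KO library for Grb2 sg-1. Eif5b, a translation initiation factor that joins ribosomal subunits, went the other way, at 9.37% ± 0.61 in ITPK1-WT cells, against 11.2% ± 0.67 in ITPK1-KO cells (SD, n = 4). Its difference of 0.26 ± 0.15 (edgeR adjusted p = 0.000797) ranged from 0.16 to 0.47 over mice, highest in mouse 7.

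Of 17 genes of the TNF receptor complex and of death receptors, 8 were lower, 1 was higher and 8 were not called, where 40.8% of all genes were lower and 7.89% higher. Under TMM 4 were lower and 2 higher. Their median was −0.050, against −0.031 over all genes. Daxx, a histone H3.3 chaperone that also binds the death receptor FAS, stood out from the other members. Its sgRNAs stood at 68.1%, 71.3%, 67.4% and 64.9% of the level of controls in the ITPK1-WT libraries of mice 5 to 8, against 30.3%, 32.7%, 31.1% and 30.3% in their ITPK1-KO libraries. The difference of −1.13 ± 0.030 (edgeR adjusted p = 1.96e-88) varied little over mice or over the sgRNAs, which gave −1.20, −1.02 and −1.15. Spata2, which recruits the deubiquitinase CYLD to the TNF receptor complex, stood at 47.7% ± 1.84 without and 39.2% ± 0.57 with the ITPK1 deletion (SD, n = 4), a difference of −0.28 ± 0.044 (edgeR adjusted p = 1.31e-12). Cyld itself differed by −0.066 ± 0.034, within the range of the non-targeting sgRNAs. Its call was lost under other scalings and was kept in 8 of 16 alternatives. Cd27, a costimulatory receptor of the TNF receptor family, differed by −0.13 ± 0.037.

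Ripk1, the kinase that directs TNF signalling towards survival, apoptosis or necroptosis, stood at 80.1%, 74.8%, 76.2% and 77.3% in the ITPK1-WT libraries of mice 5 to 8, against 70.6%, 69.7%, 73.5% and 71.2% in their ITPK1-KO libraries. The groups did not overlap, though the gap was narrow. The difference was −0.18, −0.10, −0.053 and −0.12 in mice 5 to 8, a mean of −0.11 ± 0.054 (edgeR adjusted p = 1.77e-05). Fadd and Casp8, the adaptor and the initiator caspase of death receptor apoptosis, were not called. Fadd differed by −0.050 ± 0.046 and Casp8 by −0.031 ± 0.030, each lower in 3 of 4 mice, and Casp8 changed sign under TMM, DESeq2's size factors and total counts. Tnfrsf1a, the main TNF receptor, differed by −0.087 ± 0.025, lower in 4 of 4 mice (edgeR adjusted p = 0.00278), within the range of the non-targeting sgRNAs, and lost its call under the same 3 scalings.

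Among the 4 necroptosis effectors, 2 were called lower and none higher, beside 40.8% and 7.89% of all genes, with a median of −0.041, and under TMM 1 was lower and 1 higher. Mlkl, the effector that inositol phosphates bind, stood at 70.6%, 69.7%, 72.6% and 74.0% in the ITPK1-WT libraries of mice 5 to 8, against 71.8%, 71.4%, 70.1% and 73.0% in their ITPK1-KO libraries. These groups overlapped, and the difference was −0.0022 ± 0.040 (edgeR adjusted p = 0.943), with the sign turned under 3 scalings. Ripk3, the kinase that phosphorylates MLKL, differed by −0.080 ± 0.052 (edgeR adjusted p = 0.00704), lower in 4 of 4 mice. Its value lay inside the range of the non-targeting sgRNAs and was not called under those 3 scalings. Ripk3 kept its call in 10 of 16 alternatives. Zbp1, a nucleic acid sensor upstream of RIPK3, differed by 0.019 ± 0.035 and was not called, though TMM, DESeq2's size factors and total counts called it higher. Pgam5, a mitochondrial phosphatase, differed by −0.11 ± 0.088 (edgeR adjusted p = 0.000264). Mouse 7 set much of that value, at −0.25 against −0.072 to −0.066 in the other mice, and without it the call was lost (edgeR adjusted p = 0.0563).

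Of 15 genes of the BCL-2 family and of mitochondrial apoptosis, 8 were lower in ITPK1-KO cells, none was higher and 7 were not called, where 40.8% of all genes were lower and 7.89% higher. Under TMM 5 were lower and 2 higher. The median was −0.046. Bbc3 (PUMA), a BH3-only activator of apoptosis, had the lowest value of them. It stood at 83.6%, 83.0%, 81.7% and 84.7% in the ITPK1-WT libraries of mice 5 to 8, against 60.7%, 61.3%, 60.0% and 58.7% in their ITPK1-KO libraries. The difference was −0.47 ± 0.042, or 0.723 of the ITPK1-WT level (edgeR adjusted p = 5.59e-47). The 2 pore-forming members of the family were both lower, Bax by a difference of −0.22 ± 0.028 (edgeR adjusted p = 4.93e-20) and Bak1 by −0.092 ± 0.031 (edgeR adjusted p = 0.000244). Bax stood at 97.7% ± 1.61 in ITPK1-WT cells, close to the non-targeting level, against 84.2% ± 0.83 in ITPK1-KO cells (SD, n = 4).

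Casp9, the initiator caspase of the apoptosome, differed by −0.068 ± 0.036 and Bid, which links CASP8 to mitochondria, by −0.046 ± 0.060. Both were called, both lay inside the range of the non-targeting sgRNAs and both lost the call under other scalings. Casp9 kept its call in 12 of 16 alternatives and Bid in 6. APAF1, the scaffold of the apoptosome, differed by 0.030 ± 0.025 and was not called, though the same 3 scalings called it higher.

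Of 3 ferroptosis genes 1 was higher and none lower, beside 7.89% and 40.8% of all genes. Under TMM 2 were higher and none lower. Acsl4, which loads polyunsaturated fatty acids into phospholipids and thereby makes cells sensitive to ferroptosis, stood at 22.1%, 22.6%, 21.0% and 20.5% in ITPK1-WT cells of mice 5 to 8. In ITPK1-KO cells it stood at 25.3%, 28.3%, 27.3% and 26.0%. The groups did not overlap. The difference of 0.31 ± 0.080 (edgeR adjusted p = 1.05e-08) was 0.19, 0.32, 0.38 and 0.34 in mice 5 to 8, lowest in mouse 5. By sgRNA it was 0.42 and 0.34 for sg-1 and sg-2, both called, and 0.17 for sg-3, which was not (edgeR adjusted p = 0.0755). Of the lipoxygenases, Alox15 differed by 0.028 ± 0.045 and Alox12 by 0.015 ± 0.012, and neither was called, while total counts and DESeq2's size factors called both higher.

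The 4 pyroptosis genes had a median of 0.0057. Of them 1 was called higher, 1 lower and 2 not called, where 7.89% of all genes were higher and 40.8% lower. Under TMM 2 were higher and none lower. Gsdmd, the pore-forming gasdermin, differed by −0.063 ± 0.034 (edgeR adjusted p = 0.00673) and Casp12 by 0.047 ± 0.043 (edgeR adjusted p = 0.0455), both inside the range of the non-targeting sgRNAs. Gsdmd kept its call in 11 of 16 alternatives and lost it under TMM, among others. Casp12 kept its call in 8 of 16 and lost it when scaled to the sum of the non-targeting sgRNAs, among others. Of 3 interferon receptor genes 2 were lower and none higher, beside 40.8% and 7.89% of all genes. Under each other scaling 2 were lower. Ifnar1, a chain of the type I interferon receptor, differed by −0.19 ± 0.050 (edgeR adjusted p = 1.52e-09), a call that limma on the mean over sgRNAs did not make (adjusted p = 0.0597). Ifngr2 differed by −0.095 ± 0.020, and its partner chain Ifngr1 by −0.011 and was not called.

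The 25 genes on no list included 7 lower, 1 higher and 17 not called, where 40.8% of all genes were lower and 7.89% higher. Their median was −0.017, and under TMM 4 were lower and 5 higher. Tmem57, a membrane protein that RefSeq names Maco1, was higher in ITPK1-KO cells of all mice. It stood at 65.2% ± 2.37 without and 72.3% ± 1.12 with the ITPK1 deletion (SD, n = 4), a difference of 0.15 ± 0.033 (edgeR adjusted p = 9.75e-08). Hspbap1 stood at 102% ± 1.68 and 86.1% ± 3.99, a difference of −0.24 ± 0.062 (edgeR adjusted p = 5.31e-24). Parp2, a DNA repair polymerase, differed by −0.22 ± 0.032. Atp6v1g2, a subunit of the proton pump of lysosomes, differed by −0.15 ± 0.035.

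Over all 76 genes the 3 sgRNAs were lower together in 30 and higher together in 6. Of the 37 genes called, 21 had at least 2 sgRNAs called on their own, 11 had 1 and 5 had none. In no gene were sgRNAs called in opposite directions. All 3 sgRNAs were called lower in 9 genes and higher in 2.

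Most of the larger differences were already present before injection, where each background gave 1 library and no test is possible. The difference was then 1.50 for Itpk1, −3.03 for Ipmk, −1.21 for Txnl4b, −1.05 for Daxx, −0.68 for Grb2 and −0.40 for Bbc3. In IgA mice the median gene departed from its own starting difference by 0.0758 in either direction, each gene being averaged over mice first. The same median taken within each mouse had an SD of 0.011 over mice. Of 76 genes 69 were lower than before, with a median change of −0.068. In vehicle mice that departure was 0.0521 and 59 genes were lower. Against that shift some genes moved further. The difference of Acsl4 went from 0.015 before injection to 0.31 in IgA mice, a change of 0.29, and it was 0.20 ± 0.048 in vehicle mice. Ripk1 went from 0.20 to −0.11, a change of −0.31, and changed by −0.094 in vehicle mice. The difference of Ipmk changed by −0.34 and that of Itpk1 by −0.28 in IgA mice, while in vehicle mice they changed by 0.29 and 0.23.

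The vehicle mice carried the same mixture, and the difference between backgrounds was tested for a difference between IgA and vehicle mice. The test of IgA minus vehicle mice called 5 of 76 genes (6.58%), 1 higher (1.32%) and 4 lower (5.26%) (edgeR's quasi-likelihood test of the interaction over 16 libraries with the mouse as a block). The differences of the 4 IgA mice did not overlap those of the 4 vehicle mice for 11 genes (14.5%). For Itpk1 the difference was 1.68 to 1.80 in vehicle mice and 1.11 to 1.32 in IgA mice, lower by 0.51 (SE 0.042, edgeR adjusted p = 5.67e-27). The levels lay apart between arms in ITPK1-WT cells and not in ITPK1-KO cells. Itpk1 sgRNAs stood at 24.2% ± 0.65 in ITPK1-WT cells of vehicle mice and 34.3% ± 2.79 in those of IgA mice, against 80.3% ± 1.54 and 79.8% ± 1.72 in ITPK1-KO cells (SD, n = 4). Ipmk sgRNAs likewise stood higher in ITPK1-WT cells of IgA mice, at 29.1% ± 3.08 against 20.6% ± 0.80 in vehicle mice, and in ITPK1-KO cells at 2.81% ± 0.25 against 3.09% ± 0.30. Its difference was lower by 0.64 in IgA mice (SE 0.11, edgeR adjusted p = 5.84e-07), but limma on the mean over sgRNAs, at −0.73, did not call it (adjusted p = 0.177).

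Ripk1 changed sides between arms. Its difference was 0.17, 0.13, 0.037 and 0.081 in vehicle mice 1 to 4 and negative in each IgA mouse, lower by 0.22 in IgA mice (SE 0.030, edgeR adjusted p = 5.12e-11). Commd4, a member of the COMM domain family of trafficking proteins, was the gene that was higher. It stood at 61.3%, 63.2%, 58.3% and 61.9% in the ITPK1-WT libraries of mice 5 to 8, against 59.7%, 65.2%, 62.0% and 60.9% in their ITPK1-KO libraries, which overlap (0.018 ± 0.060, edgeR adjusted p = 0.598). In vehicle mice it stood at 84.5% ± 2.27 and 73.1% ± 3.13, a difference of −0.21 ± 0.042, so that the interaction was 0.23 (SE 0.033, edgeR adjusted p = 3.67e-10). For Tmem57 the difference was 0.26 ± 0.035 in vehicle mice and lower by 0.11 in IgA mice (SE 0.033, edgeR adjusted p = 0.0100), a call lost under TMM (adjusted p = 0.0833). Mouse 5 was taken to share a sequencing sample sheet with the vehicle mice, and mice 6 to 8 to be on another. These sheets were inferred from numbers in the labels. A fit with the sheet as a covariate therefore compares mouse 5 alone with the vehicle mice and takes that 1 mouse to vary like the others. Its values were −0.42 for Itpk1, −0.67 for Ipmk, −0.29 for Ripk1, 0.17 for Commd4 and −0.11 for Tmem57, of which only that of Tmem57 was not called (edgeR adjusted p = 0.245). What the sheet adds to the values of mice 6 to 8 was not tested.

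For the other genes with a large difference the interaction was not called. It was −0.12 for Txnl4b (edgeR adjusted p = 0.798), 0.055 for Daxx (edgeR adjusted p = 0.513), −0.087 for Bbc3 (edgeR adjusted p = 0.0858) and 0.12 for Acsl4 (SE 0.063, edgeR adjusted p = 0.236). For Acsl4 the fit with the sheet as a covariate, which rests on mouse 5, the lowest of the IgA mice, gave −0.00084. Acsl4 thus differed between backgrounds in IgA mice without a called difference from vehicle mice, where it was 0.23, 0.18, 0.24 and 0.14 in mice 1 to 4.

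**Figure D3:**
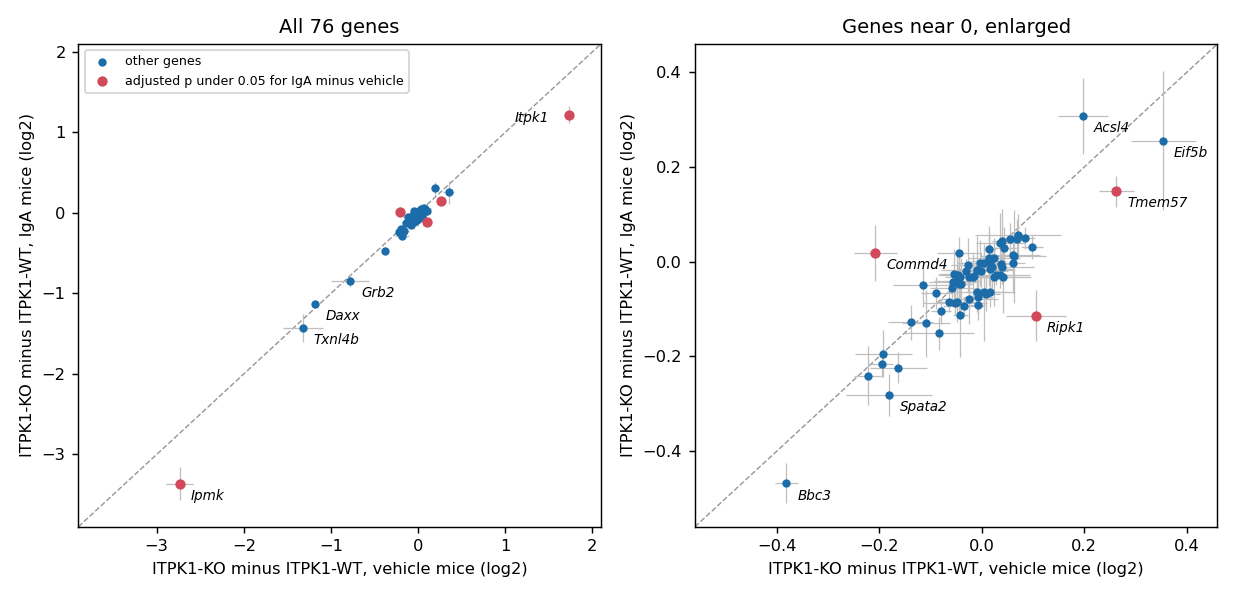
Difference between ITPK1-KO and ITPK1-WT cells (log2) in vehicle mice (horizontal) and IgA mice (vertical) for all 76 genes and, enlarged, for genes near 0; points are means of 4 mice, grey bars are SD, the dashed line marks equal values, and red points passed the interaction test. Most genes follow the line, and Itpk1 (1.73 and 1.22), Ripk1 (0.11 and −0.11) and Commd4 (−0.21 and 0.018) lie off it.

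The number of viable cells sorted gives a readout that does not depend on sgRNAs. From mice 5, 6, 7 and 8 the legend gives 1.20, 2, 1 and 0.657 M ITPK1-WT cells and 1.67, 2, 1.50 and 0.955 M ITPK1-KO cells. More ITPK1-KO than ITPK1-WT cells were sorted from 3 of 4 IgA mice, and the numbers were equal in mouse 6. The ratio was 1.39, 1, 1.50 and 1.45, a geometric mean of 1.32, or 0.40 ± 0.27 on the log2 scale. That difference did not pass an exact two-sided sign-flip permutation test (p = 0.25, the smallest possible with 4 mice being 0.125). From each vehicle mouse 2 M cells of each background were sorted, a ratio of 1 in all 4, and the IgA ratios did not pass an exact two-sided permutation test against these (p = 0.143, smallest possible 0.0286). The value 2 occurs in 10 of 16 recovered libraries. Whether sorting was stopped at that number is not stated, and such values may be lower bounds on the cells present. Mouse 6 was the only IgA mouse with a ratio of 1. Without it the log2 ratio was 0.53, and since every vehicle ratio is exactly 1 the exact permutation test then gave the smallest p it allows, 0.0286, which is no independent evidence of a difference.

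**Figure D4:**
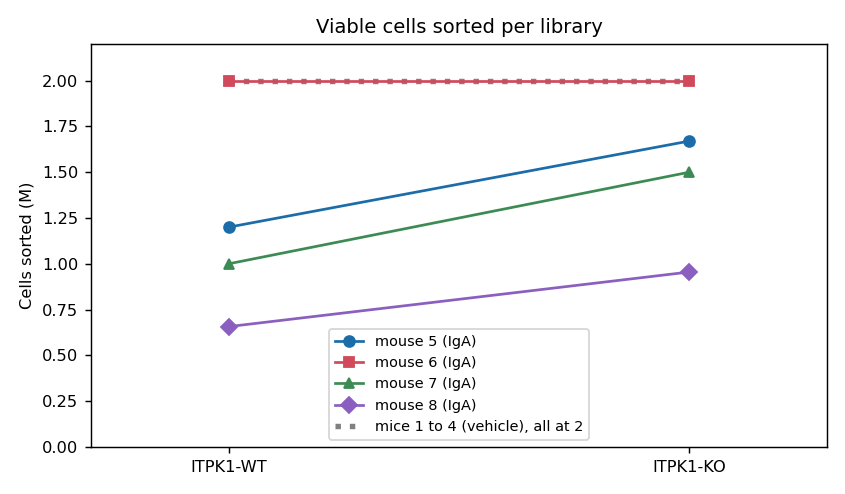
Viable cells sorted per library (M), with a line joining both backgrounds of a mouse; the dotted line stands for the 4 vehicle mice, all at 2. Mice 5, 7 and 8 have more ITPK1-KO than ITPK1-WT cells, and mouse 6 lies at 2 for both.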

How the data were processed

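The deposited values are raw counts: per the design text, reads were matched to the reference set of sgRNAs with mismatched reads dropped, then scored by MAGeCK RRA (version 0.5.6). No aligner is named. Also deposited were the authors' MAGeCK tables of IgA against vehicle mice; their 4 columns of per-sample values were not used. Cells sorted are in another unit, M cells, per the file headers. All 76 gene names matched RefSeq (GRCm38.p6), used for names only; the files name no build, so no coordinates are given.

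Reads were summed per gene, scaled to the geometric mean of the 24 non-targeting sgRNAs and tested in R 4.3.3 with edgeR 4.0.16 (glmQLFit, glmQLFTest; mean of at least 10 reads) with the mouse as a block, since both libraries of a mouse come from the same animal. The correlation of same-mouse deviations ran from −0.084 to 0.26, and that of deviations of different mice from −0.43 to 0.32. Only 1 of 4 ITPK1-WT libraries correlated best with the ITPK1-KO library of its own mouse. Alternatives were 4 scalings, other filters, DESeq2 1.42.0, limma 3.58.1, robust and joint fits, thinning, no block and each mouse left out. Procedures were tested on simulated data. PCR reads without molecular identifiers are not independent molecules, so read depth understates the error.

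The comparison, the gene lists and the naming rule (genes past the threshold, the 5 highest and 5 lowest, the genes of the interaction and a set list of death genes) were chosen with earlier results of these data known. Of the genes that this rule names, 2 are not reported here, though counts include them.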

Additional observations from a re-analysis of the deposited data

Results flagged for a closer look

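In 2 of 40 sets of 4 mice 1 mouse lay far from the others, and chance gives about 1 in 20. The difference between backgrounds of Bad, a BH3-only protein, was 0.12 in mouse 5 and 0.024 to 0.038 in the other IgA mice. That of Pgam5 was −0.25 in mouse 7 and −0.072 to −0.066 in the others.

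The difference between backgrounds itself differed between IgA and vehicle mice for 5 genes, by the edgeR interaction test. It was −0.51 for Itpk1, −0.64 for Ipmk, −0.22 for Ripk1, −0.11 for Tmem57 and 0.23 for Commd4. Going by numbers in the labels, from which the sequencing sample sheets were inferred, only mouse 5 of the IgA mice shares a sheet with the vehicle mice. The part of the sheet in these values was not tested.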

How the results depend on the processing

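The number of genes called stayed within 1.5 times of 37 under all 16 alternatives, from 27 with limma to 38 in the joint fit. It ran from 28 to 33 with each mouse left out in turn. Which genes were called changed more than their number. TMM called 35 genes, of which 25 were among the 37, DESeq2's size factors 35, of which 24 were, and total counts 36, of which 24 were. Mouse numbers pair the libraries; without the mouse as a block 29 genes, 70 sgRNAs and 5 interactions were called. The sgRNA calls ran from 55 to 67 with a mouse left out. The interaction calls ran from 4 to 8, with 8 reached without mouse 4 and without mouse 6. The median departure from the starting difference ran from 0.0694 to 0.0773 with a mouse left out and was 0.108 when scaled to the median of the non-targeting sgRNAs. The log2 ratio of sorted cells ran from 0.34 to 0.53, reaching 0.53 without mouse 6.

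Over the genes named, 884 values were taken under alternatives. Of these, 796 kept the direction and the side of the threshold. They include the values under the other filters on low counts, which removed no gene and could not change a value. Another 60 lost the threshold, 11 passed it and 17 had the sign turned, whose cause was not tested. Casp8 was 0.0069, 0.0081 and 0.0096 and Mlkl 0.038, 0.039 and 0.040 under TMM, DESeq2's size factors and total counts. Mlkl was also 0.015 in thinned libraries and 0.014 and 0.0036 without mice 7 and 8, a range of −0.016 to 0.014 over mice left out, and Commd4 was −0.0030 without mouse 7. Of the interactions, Hspbap1 was 0.0098, 0.0073 and 0.0069 under the same scalings, Grb2 was 0.0036 in thinned libraries and 0.046 without mouse 1 (−0.16 to 0.046 over mice left out), and with the sheet as a covariate, where mouse 5 is the only IgA mouse compared, Cyld was −0.0087 and Acsl4 −0.00084.

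Few reads limit the sgRNAs of Ipmk, Txnl4b and Grb2 in ITPK1-KO cells. With 4 mice and 1 pool per background, differences between pools that arose during culture are not separated from genotype.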
